A study of Arabidopsis thaliana with 18 samples.

Results

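Autophagy ATG genes were followed in cultured Arabidopsis thaliana cells on Affymetrix arrays. The members were all probe sets, the groups of short probes that together read 1 transcript, whose single gene symbol in the array annotation begins with ATG and a number. This rule found 8 of the 13513 probe sets annotated to 1 gene, and each stands for a different gene: ATG3 and the ATG8 genes ATG8B, ATG8C, ATG8D, ATG8E, ATG8F, ATG8G and ATG8H. All 8 passed the filter on dim signals, ATG8H by way of its 0 h arrays, because most of its 12 h arrays were too dim. The rule itself uses the symbol and no signal, though it was chosen with earlier results of these data known.

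Autophagy encloses cytoplasm in a double membrane, the autophagosome, which delivers it to the vacuole for degradation. It runs at a low rate in fed plant cells and is known to be raised by sugar or nitrogen starvation, when it recycles cell content, and it has also been linked to xylem differentiation. ATG8 proteins are small ubiquitin-like proteins that are joined to a lipid of the growing membrane and both shape it and bind cargo. ATG3 is the E2-like enzyme that makes this link, so the 8 genes belong to a single step of the pathway. Most ATG8 proteins must first be trimmed by the protease ATG4 to expose a glycine, while ATG8H belongs to a branch of the family whose proteins already end at that glycine.

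The 6 groups of 3 arrays were cells of the line labelled VND6 taken 12 h or 0 h after addition of estrogen (2 µM), cells of the line labelled SND1 at 12 h or 0 h, and wild-type (wt) cells at 12 h or 0 h. In the transformed lines estrogen switches on VND6, a NAC transcription factor known as a switch of vessel differentiation, or SND1, a NAC factor known for secondary wall formation in fibres. The labels name neither the promoter of the inducible system nor the number of independent transformants, and the transcripts of VND6 and SND1 themselves are not analysed here. All cells received estrogen and no group was sampled at 12 h without it, so effects of estrogen and of 12 h in culture cannot be told apart. PRX72 (AT5G66390), a peroxidase of lignin formation, reached a signal of 1613 to 1658 in VND6 cells at 12 h against 0.942 to 12.9 at 0 h, and IRX15, a xylan gene, 499.6 to 707 in SND1 cells at 12 h against 2.68 to 3.07 at 0 h. PRX72 stayed at 2.00 to 3.20 in SND1 cells at 12 h, and IRX15 reached 33.2 to 73.9 in VND6 cells at 12 h. Of the other target genes followed as checks, SCPL48 and AT4G18425 rose in both transformed lines. AT4G04460 rose in SND1 cells and did not pass in VND6 cells (limma adjusted p = 0.223). In wt cells SCPL48, AT4G18425 and AT4G04460 fell, with log2 changes of -2.372, -1.63 and -1.866, while PRX72 and IRX15 did not pass. The VND6 change of AT4G04460 less its wt change was 2.812 (limma adjusted p = 0.0473), which passed in 7 of 20 alternatives. RCA, also followed as a check, fell in all 3 lines, with log2 changes of -4.408 in VND6 cells, -3.626 in SND1 cells and -4.439 in wt cells.

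The array medians lay between 103 and 133, and 15715 of 22810 probe sets were tested. In wt cells the medians were 103 to 113 at 0 h and 127 to 133 at 12 h, while in VND6 and SND1 cells the times overlapped. Replicates 2 and 3 lay closer to each other (Spearman's rho 0.984 to 0.991 in the 6 groups) than either did to replicate 1 (0.872 to 0.958). The labels do not say whether replicates were separate cultures, so the p-values cover the spread among the arrays at hand, which may be technical. Replicates 2 and 3 were also fitted alone, and averaged into 1 sample. The share of all probe sets called was counted in neither of these fits, so their counts of genes have no background beside them. In bulk RNA, fewer cells that express a gene and less of its RNA per cell cannot be told apart.

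In cells of all 3 lines, 7 of the 8 genes had a lower signal at 12 h than at 0 h. ATG8E and ATG8F fell by 11.1-fold to 27.9-fold. ATG8H fell by 6.54-fold to 29.9-fold as fitted, but its signal at 12 h was mostly dim, so these folds are uncertain. ATG3, ATG8B, ATG8C and ATG8D fell by 1.92-fold to 4.11-fold. ATG8G went the other way in wt cells and did not pass in the transformed lines. Fold changes are on the scale of log2(signal + 4.32), and a call is an adjusted p under 0.05 in limma, adjusted over all probe sets tested. By this test 7 genes fell and none rose in VND6 cells, where 24.7% of all tested probe sets fell and 28.8% rose. In SND1 cells 7 fell and none rose, where 22.8% of all fell and 27.8% rose. In wt cells 7 fell and 1 rose, where 22% of all fell and 32.1% rose. The median log2 change of the 8 genes was -1.92 in VND6 cells, -1.56 in SND1 cells and -1.54 in wt cells, beside medians of 0.083, 0.075 and 0.196 over all tested probe sets. For these 7 genes every 12 h array lay under every 0 h array of its line, as it did for 26.7%, 30.3% and 24.1% of all tested probe sets in VND6, SND1 and wt cells.

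**Figure D1:**
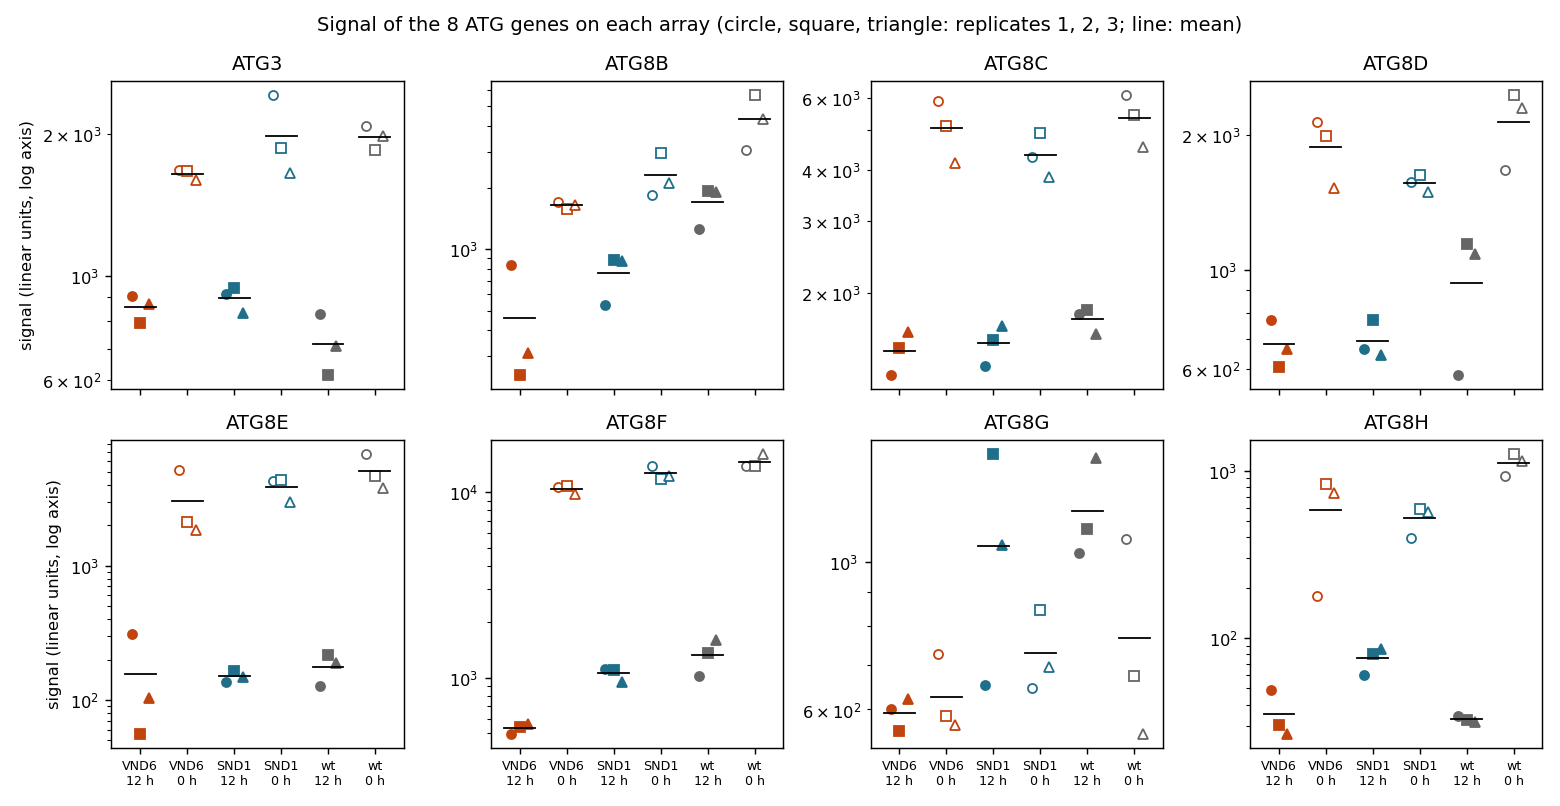
Signal of each ATG gene (linear units on a log axis, its range set per panel) on the 18 arrays. Filled symbols are 12 h and open symbols 0 h, circles, squares and triangles are replicates 1, 2 and 3, and lines are group means. In 7 panels the filled symbols lie under the open symbols of the same line, and in the ATG8G panel they do not.

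ATG3 (AT5G61500), the conjugating enzyme, changed the least of the genes that fell in VND6 cells. Its signal was 905, 792 and 872 in VND6 cells at 12 h, against 1676, 1663 and 1597 at 0 h. It was 916, 942 and 833 in SND1 cells at 12 h, against 2415, 1867 and 1651 at 0 h. In wt cells it was 829, 615 and 710 at 12 h, against 2081, 1843 and 1974 at 0 h. The groups at 12 h and 0 h did not overlap in any line, and SND1 replicate 1 was the highest array at 0 h. ATG3 fell in all 3 lines, with log2 changes of -0.94 in VND6 cells (SE 0.17, adjusted p = 0.000186 in limma), -1.12 in SND1 cells (SE 0.17, adjusted p = 4.05e-05) and -1.46 in wt cells (SE 0.17, adjusted p = 2.07e-06).

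ATG8F (AT4G16520) fell by an order of magnitude with little spread between arrays. Its signal was 499, 539 and 561 in VND6 cells at 12 h, against 10663, 10813 and 9750.04 at 0 h. In SND1 cells it was 1109, 1104 and 948 at 12 h, against 13792, 11810.2 and 12277 at 0 h. In wt cells it was 1022, 1355 and 1598 at 12 h, against 13855, 13779 and 16164 at 0 h. The VND6 arrays at 12 h were the lowest of the 18 and overlapped with no other group. Its fall passed in all 3 lines, with log2 changes of -4.28 in VND6 cells (SE 0.16, adjusted p = 3.52e-11), -3.58 in SND1 cells (SE 0.16, adjusted p = 2.25e-10) and -3.48 in wt cells (SE 0.16, adjusted p = 2.52e-10).

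ATG8E (AT2G45170) fell as far, with more spread in VND6 cells. Its signal was 311, 56.0 and 103 in VND6 cells at 12 h, against 5116, 2118 and 1858 at 0 h. In SND1 cells it was 136, 165 and 148 at 12 h, against 4278, 4353 and 2956 at 0 h. In wt cells it was 126, 217 and 188 at 12 h, against 6839, 4656 and 3759 at 0 h. VND6 replicate 1 was the highest of its group at both times, and no 12 h array reached any 0 h array. ATG8E fell in all 3 lines, with log2 changes of -4.42 in VND6 cells (SE 0.48, adjusted p = 1.48e-06), -4.63 in SND1 cells (adjusted p = 1.04e-06) and -4.80 in wt cells (adjusted p = 4.86e-07). Of all tested probe sets, 1.22% had a change as low or lower in VND6 cells, 1.01% in SND1 cells and 1.02% in wt cells.

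ATG8H (AT3G06420), of the branch that ends at the glycine, was near the dim end of the arrays at 12 h. Its signal was 48.9, 30.2 and 26.8 in VND6 cells at 12 h, against 179, 834 and 732 at 0 h. In SND1 cells it was 60.3, 80.8 and 85.6 at 12 h, against 399, 593 and 569 at 0 h. In wt cells it was 34.2, 32.2 and 31.6 at 12 h, against 927, 1268 and 1142 at 0 h. At 12 h all 3 VND6 arrays, all 3 wt arrays and 1 of the 3 SND1 arrays were under the 40th percentile of their own array, which was 52.1 to 64.5 on the arrays at 12 h, so the size of its fall is uncertain. ATG8H thus passed the filter through its 0 h arrays, which favours a fall over a rise. The 3 SND1 arrays at 12 h lay above the other 12 h arrays. ATG8H fell in all 3 lines, with log2 changes of -3.65 in VND6 cells (SE 0.42, adjusted p = 2.93e-06), -2.71 in SND1 cells (adjusted p = 6.46e-05) and -4.90 in wt cells (adjusted p = 1.05e-07). In VND6 cells the change was -1.78 between the arrays numbered 1, -4.60 between those numbered 2 and -4.56 between those numbered 3.

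ATG8C (AT1G62040) and ATG8D (AT2G05630) fell less and nearly equally in the 3 lines. The signal of ATG8C was 1255, 1463 and 1604 in VND6 cells at 12 h, against 5899, 5121 and 4155 at 0 h. It was 1322, 1530.03 and 1658 in SND1 cells at 12 h, against 4299, 4917 and 3829 at 0 h. It was 1777, 1817 and 1579 in wt cells at 12 h, against 6089, 5429 and 4547 at 0 h. The 12 h ranges of VND6, SND1 and wt cells overlapped for this gene, as did the 0 h ranges. ATG8C fell in all 3 lines, with log2 changes of -1.80 in VND6 cells (SE 0.18, adjusted p = 4.65e-07), -1.53 in SND1 cells (adjusted p = 2.93e-06) and -1.63 in wt cells (adjusted p = 1.08e-06).

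The signal of ATG8D was 773, 608 and 665 in VND6 cells at 12 h, against 2136, 1985 and 1521 at 0 h. It was 664, 773 and 644 in SND1 cells at 12 h, against 1565, 1628 and 1488 at 0 h. It was 581, 1140.2 and 1083 in wt cells at 12 h, against 1664, 2450.4 and 2296 at 0 h. Replicate 1 was the lowest wt array at both times. ATG8D fell in all 3 lines, with log2 changes of -1.45 in VND6 cells (SE 0.24, adjusted p = 9.39e-05), -1.17 in SND1 cells (adjusted p = 0.000703) and -1.23 in wt cells (adjusted p = 0.000385).

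ATG8B (AT4G04620) fell in each line, and its mean signal also differed between the lines. At 0 h the difference from wt did not pass in SND1 cells (limma adjusted p = 0.259). In VND6 cells it passed (adjusted p = 0.0356) but was lost in several alternatives given below, and the lines were not compared directly at 12 h. Its signal was 833, 241 and 308 in VND6 cells at 12 h, against 1710.01, 1570.2 and 1645 at 0 h. In SND1 cells it was 533, 887 and 873 at 12 h, against 1843, 2957 and 2102 at 0 h. In wt cells it was 1257, 1932 and 1899 at 12 h, against 3041, 5680 and 4317 at 0 h. Signals in wt cells at 12 h thus overlapped those in VND6 cells at 0 h, and VND6 replicate 1 at 12 h was well above the other VND6 arrays at 12 h. ATG8B fell in all 3 lines, with log2 changes of -2.04 in VND6 cells (SE 0.37, adjusted p = 0.000258), -1.59 in SND1 cells (adjusted p = 0.00214) and -1.34 in wt cells (adjusted p = 0.00654). The wt call was lost with replicates 2 and 3 averaged (adjusted p = 0.0671), and its value in the alternatives ranged over -1.57 to -1.12.

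ATG8G (AT3G60640) was the exception. Its signal was 602, 557 and 622 in VND6 cells at 12 h, against 726, 587 and 568 at 0 h. In SND1 cells it was 653, 1455 and 1061 at 12 h, against 646, 847 and 696 at 0 h. In wt cells it was 1030.3, 1122 and 1430.1 at 12 h, against 1081, 673 and 552 at 0 h. The groups at 12 h and 0 h overlapped in each line, and of the 9 numbered pairs of arrays 3 were lower at 12 h, while for each of the other 7 genes 9 of 9 were lower. ATG8G rose by 0.68 on the log2 scale in wt cells (SE 0.28, adjusted p = 0.0496). The change was 0.47 in SND1 cells (SE 0.28, adjusted p = 0.177, 95% confidence interval -0.12 to 1.06) and -0.07 in VND6 cells (adjusted p = 0.847, interval -0.66 to 0.52). The wt call was lost when the replicate number was a block (adjusted p = 0.0555), without a filter (0.0627), when just the arrays compared were fitted (0.0999) and when replicates 2 and 3 were averaged (0.348). It was also lost without wt replicate 2 at 0 h (0.125), replicate 3 at 0 h (0.206) or replicate 1, 2 or 3 at 12 h (0.0506, 0.0798 and 0.169), and the wt value was -0.07 between the arrays numbered 1 and 1.05 in replicates 2 and 3. In SND1 cells the change was 0.69 with replicates 2 and 3 only (adjusted p = 0.00289) and 0.77 without replicate 1 at 12 h (adjusted p = 0.0271).

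**Figure D2:**
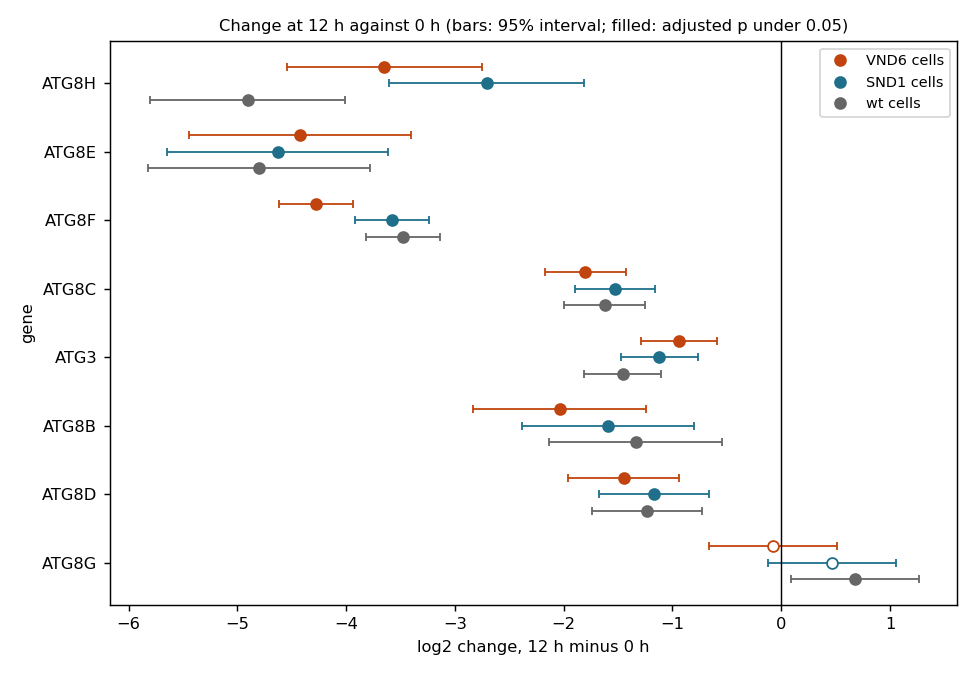
Log2 change of each ATG gene at 12 h against 0 h in VND6, SND1 and wt cells (x axis), with the 95% confidence interval of limma. Filled points passed at an adjusted p under 0.05. The points of 7 genes lie between -4.90 and -0.94 and those of ATG8G between -0.07 and 0.68.

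The change in a transformed line (12 h minus 0 h) less the same change in wt cells is called here the response beyond wt. The large fall of the ATG genes was shared with wt cells. In each transformed line 1 of the 8 genes passed for a difference from it. Such a count among 8 genes says little beside the shares over all probe sets given next. In the VND6 response beyond wt ATG8F stood lower and the other 7 genes did not pass, where 7.99% of all tested probe sets were called lower and 5.84% higher. In the SND1 response beyond wt ATG8H stood higher and the other 7 genes did not pass, where 3.47% of all were called higher and 2.4% lower. Both responses use the same wt arrays. The median of the 8 genes was -0.20 in the VND6 response beyond wt and 0.08 in the SND1 response beyond wt, beside -0.22 and -0.20 over all tested probe sets.

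The log2 change of ATG8F was -4.28 in VND6 cells and -3.48 in wt cells, a difference of -0.80 (SE 0.23, limma adjusted p = 0.0305, 95% confidence interval -1.29 to -0.31). Its mean signal at 12 h was 533 ± 31.6 in VND6 cells, against 1325 ± 289 in wt cells (SD, n = 3 each). The call was lost under quantile normalization (adjusted p = 0.0594), when just the arrays compared were fitted (0.0915) and when replicates 2 and 3 were averaged (0.407). Leaving out VND6 replicate 2 or 3 at 12 h (0.065 and 0.0545), VND6 replicate 2 at 0 h (0.0659), or 1 of the wt arrays numbered 2 and 3 at 12 h (0.0705 and 0.0847) or 2 at 0 h (0.0625) also ended it. The direction held in all 20 alternatives, at -0.97 to -0.65.

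ATG8H fell less in SND1 cells than in wt cells, a difference of 2.196 on the log2 scale (SE 0.60, limma adjusted p = 0.0418, interval 0.93 to 3.47). Its mean signal at 12 h was 75.6 ± 13.4 in SND1 cells, against 32.7 ± 1.38 in wt cells, and at 0 h it was 520.3 ± 106 in SND1 cells, against 1112 ± 172 in wt cells (SD, n = 3 each). SND1 arrays thus stood above wt arrays at 12 h and below them at 0 h, with no overlap. Of the 12 arrays of these groups, wt replicate 1 at 0 h could be left out with the call kept. Leaving out any of the remaining 11 ended it (adjusted p 0.0513 to 0.0976, values 2.02 to 2.34), as did testing without a filter (0.0593) and averaging replicates 2 and 3 (0.488). In VND6 cells the same difference was 1.25 (SE 0.60, adjusted p = 0.179).

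**Figure D3:**
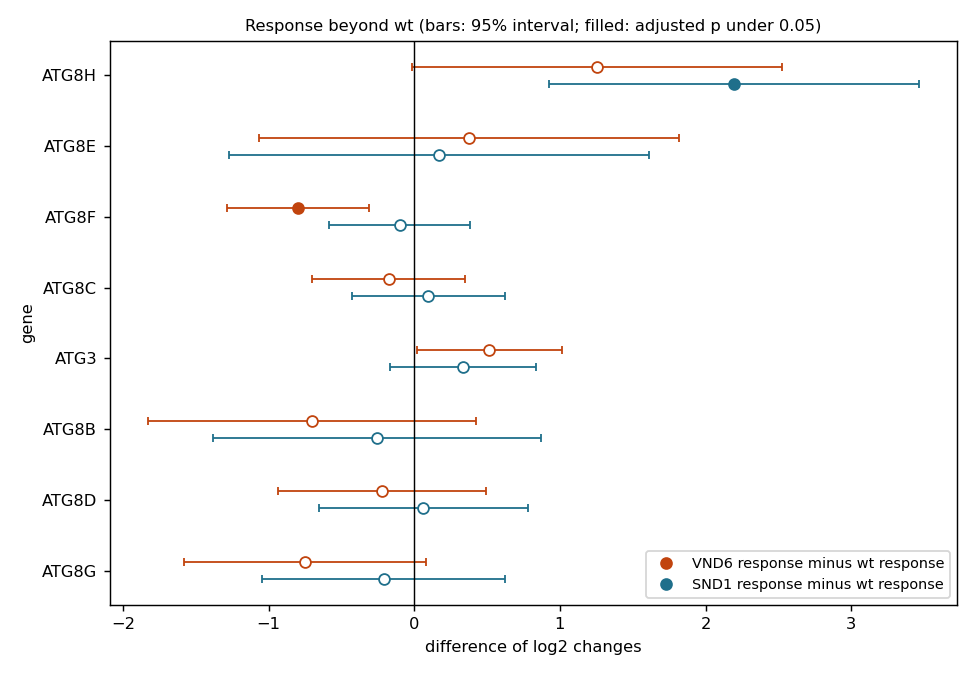
Difference of each ATG gene's log2 change between a transformed line and wt cells (x axis), with the 95% confidence interval of limma. Filled points passed at an adjusted p under 0.05. ATG8F in VND6 cells (-0.80) and ATG8H in SND1 cells (2.196) are the filled points.

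For the genes that did not pass, the intervals show how large a difference these arrays could have missed. For ATG8C the VND6 response beyond wt was -0.18 (interval -0.70 to 0.35) and the SND1 response beyond wt 0.10 (-0.43 to 0.62). For ATG8E the intervals were wider, -1.06 to 1.82 around 0.38 for VND6 and -1.27 to 1.61 around 0.17 for SND1. For ATG3, whose fall was smaller in both transformed lines, the values were 0.52 (0.02 to 1.02, adjusted p = 0.16) and 0.34 (-0.16 to 0.84, adjusted p = 0.427). With replicates 2 and 3 only, ATG3 passed in both (adjusted p = 0.0135 and 0.0217), and ATG8B and ATG8G also passed in the VND6 response beyond wt, at -1.17 and -1.02. Without VND6 replicate 1 at 12 h, the ATG8B value was -1.23 (adjusted p = 0.0414), against -0.70 with it.

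None of the 8 genes passed in the VND6 response minus the SND1 response in limma, where 0.745% of all tested probe sets were called, and 1 of the 8 had an unadjusted p under 0.05. That gene was ATG8F, at -0.70 on the log2 scale (SE 0.23, adjusted p = 0.309). With replicates 2 and 3 only, 3 genes stood lower in VND6 cells: ATG8H (-1.84), ATG8B (-1.04) and ATG8F (-0.66). No share of all probe sets was counted for that fit. ATG8H was also called without VND6 replicate 1 at 0 h, at -1.64 (adjusted p = 0.0361).

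Before induction, at 0 h, 1 of the 8 ATG genes passed for a difference from wt cells in VND6 cells and none in SND1 cells. Such counts among 8 genes say little beside the shares over all probe sets given below. Against wt cells the 8 genes stood at -1.36 to -0.09 in VND6 cells and at -1.10 to -0.01 in SND1 cells. ATG8C and ATG8G in VND6 cells and ATG3 and ATG8G in SND1 cells turned above wt in at least 1 alternative, ATG3 under quantile normalization among them. The 2 comparisons share the wt arrays. In VND6 cells ATG8B stood at -1.36 against wt (SE 0.37, limma adjusted p = 0.0356) and the other 7 genes did not pass, where 3.72% of all tested probe sets were called lower and 4.8% higher. Its signal at 0 h was 1642 ± 70.0 in VND6 cells, against 4346 ± 1320 in wt cells (SD, n = 3 each), with no overlap. The ATG8B call was lost when just the arrays compared were fitted (adjusted p = 0.0905), when replicates 2 and 3 were averaged (0.474), and without wt replicate 2 (0.143) or 3 (0.101) or VND6 replicate 2 (0.108) or 3 (0.0838) at 0 h. In SND1 cells no gene passed in limma, where 2.34% of all were called in either direction, and ATG8B at -0.90 and ATG8H at -1.10 had an unadjusted p under 0.05. With replicates 2 and 3 only, 5 genes were lower than wt in VND6 cells (ATG8B, ATG8D, ATG8E, ATG8F and ATG8H) and 3 in SND1 cells (ATG8B, ATG8D and ATG8H). The share of all probe sets called in that fit was not counted.

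The order of the 6 group means differed between genes. For ATG8C, ATG8D and ATG8E wt cells at 0 h were highest, the other 0 h groups came next, the 12 h groups came last, and neighbours taken at the same time overlapped. For ATG8B wt cells at 0 h were highest and overlapped no group, followed by SND1 cells at 0 h, wt cells at 12 h and VND6 cells at 0 h, then SND1 and VND6 cells at 12 h. For ATG8F the order was wt, SND1 and VND6 at 0 h, then wt, SND1 and VND6 at 12 h. There the ranges of wt and SND1 cells overlapped at both times, while those of VND6 cells overlapped no neighbour. For ATG3 the 12 h order was turned, with SND1 (897 ± 56.9) and VND6 (856 ± 58.0) above wt (718 ± 107; SD, n = 3), though VND6 and wt ranges overlapped. For ATG8H SND1 cells at 12 h lay above VND6 and wt cells at 12 h, whose ranges overlapped. For ATG8G all neighbours in the order overlapped.

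Across the 18 arrays, the log2 signal of ATG8G correlated with that of the other 7 genes at a Pearson r of -0.41 (ATG3) to 0.13 (ATG8B). These points share arrays and the 2 time points, so the values are a description only. ATG8E had the widest range of group means of the 8, 5.28 on the log2 scale. Among 8831 other tested probe sets of 1 gene, the 5 most like it over the 18 arrays were AT5G61590 (r = 0.991), AT4G25170 (0.986), AT4G19860 (0.984), AT4G31410 (0.982) and AT5G19120 (0.982). AT5G61590 is DEWAX in RefSeq, a regulator known to repress wax synthesis. Its mean signal was 24.9 in VND6 cells at 12 h against 3151 at 0 h, 25.8 in SND1 cells at 12 h against 6171 at 0 h, and 42.0 in wt cells at 12 h against 5130.2 at 0 h.

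A further pair of ATG8 genes carries older symbols in the annotation, so the rule did not take them: APG8A (ATG8A in RefSeq, AT4G21980) and APG8H (ATG8I in RefSeq, AT3G15580). Both fell in each line like the 7 genes above. APG8A had a signal of 913, 1024 and 1065 in VND6 cells at 12 h, against 3551, 5714 and 4307 at 0 h, and fell by 2.15 on the log2 scale (limma adjusted p = 1.74e-06). Its log2 change was -1.82 in SND1 cells and -2.5995 in wt cells. APG8H fell in all 3 lines, with log2 changes of -1.93 in VND6 cells, -1.97 in SND1 cells and -2.07 in wt cells.

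Of a list of 39 core autophagy loci, 8 are the genes above and 11 others, the APG genes among them, had a named probe set and were tested. Among these 11, 6 fell in VND6 cells, 6 in SND1 cells and 7 in wt cells, while 1 rose in VND6 cells, 3 in SND1 cells and none in wt cells. Of all tested probe sets 24.7%, 22.8% and 22% fell and 28.8%, 27.8% and 32.1% rose in VND6, SND1 and wt cells, so the share that rose in SND1 cells lay near that of all probe sets. The median log2 change of the 11 loci was -1.02 in VND6 cells, -1.31 in SND1 cells and -2.07 in wt cells, beside 0.083, 0.075 and 0.196 over all. With replicates 2 and 3 averaged, 4 of the 11 were called in VND6 cells and 5 in SND1 cells, and with these replicates only, 11 in VND6 cells. No share of all probe sets was counted for these fits. The SND1 rises of AT3G53930 and AT3G59950 kept their calls in 8 and 11 of 14 alternatives. Both were lost without SND1 replicate 2 at 0 h or replicate 3 at 12 h. AT5G66930, named ATG101 in RefSeq and known as a subunit of the kinase complex that starts autophagy, fell in all 3 lines, with log2 changes of -1.23 in VND6 cells, -1.61 in SND1 cells and -2.22 in wt cells. AT1G49180, which has no gene name in the tables used, also fell in the 3 lines, but its signal at 12 h was 1.11 to 29.3, under the 40th percentile on all 9 arrays, so the size of its fall is uncertain. AT1G49180 passed the filter through its 0 h arrays only, which favours a fall over a rise. Its fitted log2 change in VND6 cells ranged over -4.74 to -1.87 in the alternatives, and its SND1 call was lost without SND1 replicate 1 or 3 at 0 h or replicate 3 at 12 h (limma adjusted p up to 0.153) and with replicates 2 and 3 averaged (0.109). The probe sets of AT1G77890 and of AT2G37840 gave unlike values: in wt cells AT1G77890 stood at -2.33 on the brighter and -0.36 on the other, and AT2G37840 at -2.09 on the brighter and -1.21 on the other. The brighter was used. AT3G18770, counted as a fall in VND6 and SND1 cells, also passed the filter by way of its 0 h arrays, because most of its 12 h arrays were too dim. Its calls were kept in 10 of 14 alternatives in VND6 cells and in 12 of 14 in SND1 cells.

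AT3G61960, a core locus with no gene name in the tables used, moved in opposite directions in the transformed lines and in wt cells. Its signal was 548, 672 and 577 in VND6 cells at 12 h, against 397, 281 and 319 at 0 h. It was 1126, 1277 and 1509.7 in SND1 cells at 12 h, against 659.9, 493 and 616 at 0 h. It was 274, 303 and 321 in wt cells at 12 h, against 742, 384 and 567 at 0 h. In each line the times did not overlap, with 12 h above 0 h in VND6 and SND1 cells and below it in wt cells. It rose by 0.85 on the log2 scale in VND6 cells (limma adjusted p = 0.00519) and by 1.14 in SND1 cells (adjusted p = 0.000611) and fell by 0.86 in wt cells (adjusted p = 0.00477), and the VND6 rise was lost with replicates 2 and 3 averaged (adjusted p = 0.0957). The response beyond wt was 1.71 in VND6 cells (SE 0.32, adjusted p = 0.00304) and 1.99 in SND1 cells (SE 0.32, adjusted p = 0.00159). Both responses beyond wt were also lost there (adjusted p = 0.14 and 0.118) and held in the other 19 alternatives. In all, 4 of the 11 loci were higher in the VND6 response beyond wt and 3 in the SND1 response beyond wt, with none lower, where 5.84% and 3.47% of all tested probe sets were higher. Their medians were 0.94 and 0.78, beside -0.22 and -0.20 over all. The count of 4 came to 1 without wt replicate 2 or 3 at 0 h or VND6 replicate 2 or 3 at 12 h and to 2 without wt replicate 1, 2 or 3 at 12 h. It was 1 when just the arrays compared were fitted. The count of 3 came to 1 without wt replicate 1 at 0 h, any wt array at 12 h, or SND1 replicate 2 or 3 at 0 h or at 12 h. Without a filter the counts were 2 and 1, with replicates 2 and 3 averaged 0 and 0, and with replicates 2 and 3 only the SND1 count was 7. At 0 h, 4 of the 11 already stood lower in VND6 cells and 1 in SND1 cells than in wt cells. AT3G53930 (-1.75 in VND6 cells) and AT5G66930 (-0.73) are among these 4 and also among the 4 higher in the VND6 response beyond wt. Of all tested probe sets 3.72% were lower in VND6 cells, and 2.34% were called in either direction in SND1 cells. Both counts came to 0 when just the arrays compared were fitted and with replicates 2 and 3 averaged. The 4 came to 1 or 2 without wt or VND6 replicate 2 or 3 at 0 h. The 1 came to 0 without SND1 replicate 2 or 3 at 0 h and to 2 without wt replicate 1. With replicates 2 and 3 only they were 7 and 5.

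**Figure D4:**
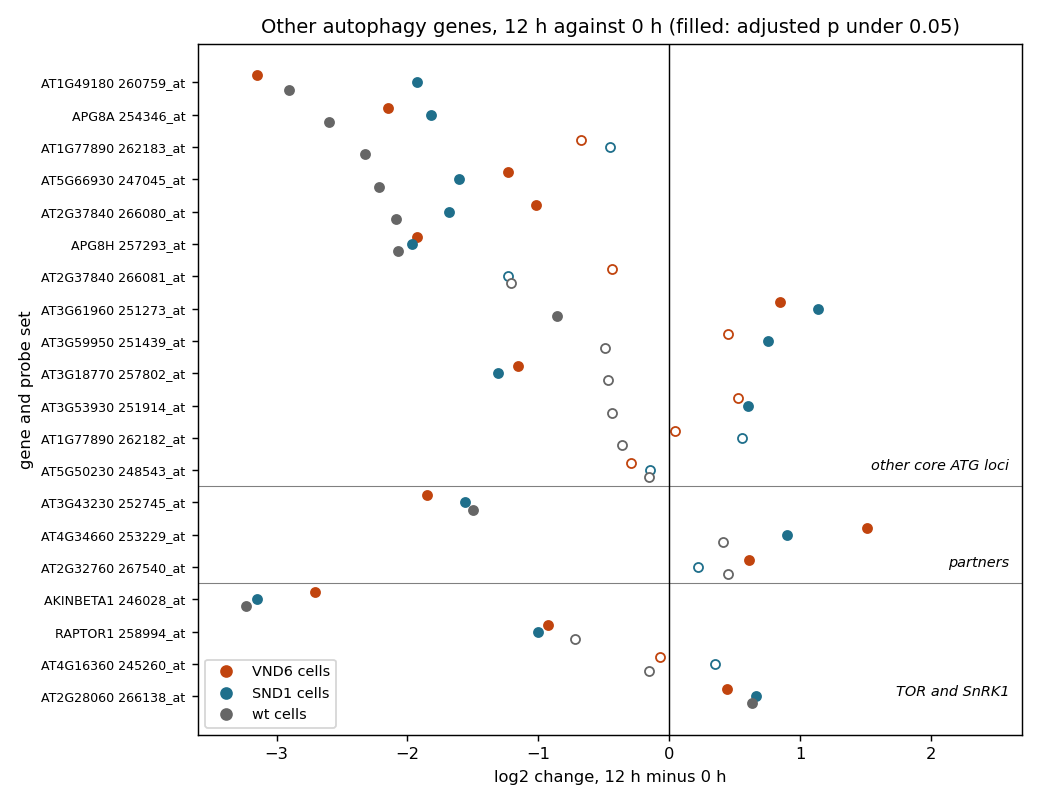
Log2 change at 12 h against 0 h (x axis) of other core autophagy loci, partners, and TOR and SnRK1 subunits in VND6, SND1 and wt cells, 1 row per probe set. Filled points passed at an adjusted p under 0.05. AT3G61960 lies at 0.85 and 1.14 in VND6 and SND1 cells and at -0.86 in wt cells.

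A pair of kinases sets the rate of autophagy in plants: TOR, active in fed cells, represses it, and SnRK1, active in starved cells, promotes it. Of 10 genes of these complexes 4 were tested. AKINBETA1 (AT5G21170), a beta subunit of SnRK1, fell with the ATG genes. Its signal was 199, 358 and 395 in VND6 cells at 12 h, against 2206, 2034 and 1820.3 at 0 h, a log2 change of -2.71 (limma adjusted p = 2.48e-07), and the change was -3.15 in SND1 cells and -3.24 in wt cells. AT2G28060 (KINbeta3 in RefSeq), another beta subunit, rose by 0.44, 0.66 and 0.63 in VND6, SND1 and wt cells. Its VND6 call was lost without VND6 replicate 1, 2 or 3 at 0 h or 2 or 3 at 12 h, under quantile normalization, without a filter, when just the arrays compared were fitted and with replicates 2 and 3 averaged (limma adjusted p 0.0524 to 0.285). Its wt call was lost in the last of these (0.183) and when just the arrays compared were fitted (0.0572), and its SND1 call in the last (0.113). RAPTOR1, a subunit of the TOR complex, stood at -0.92 in VND6 cells (limma adjusted p = 0.0365), -1.001 in SND1 cells (adjusted p = 0.0261) and -0.72 in wt cells (adjusted p = 0.0961). Its VND6 call was lost without VND6 replicate 1 or 2 at 0 h or 2 or 3 at 12 h (highest adjusted p 0.158), when just the arrays compared were fitted (0.057) and with replicates 2 and 3 averaged (0.166). Its SND1 call ended without SND1 replicate 1 at 0 h or 2 or 3 at 12 h (highest adjusted p 0.137), and with replicates 2 and 3 averaged (0.124). AT4G16360 (KINbeta2 in RefSeq) did not pass in any line. None of the 4 passed in a response beyond wt in limma, and none had an unadjusted p under 0.05 there. Of all tested probe sets 5.84% were higher and 7.99% lower in the VND6 response beyond wt, and 3.47% and 2.4% in the SND1 response beyond wt. Beside these shares a count among 4 genes says little. With replicates 2 and 3 only, 2 of the 4 genes were called higher in the VND6 and 1 in the SND1 response beyond wt, with no share of all probe sets counted. Of 15 partner loci 3 were tested. In VND6 cells 2 rose and 1 fell, in SND1 cells 1 rose and 1 fell, and in wt cells none rose and 1 fell. These shares rest on 3 loci, beside 28.8%, 27.8% and 32.1% higher and 24.7%, 22.8% and 22% lower over all in VND6, SND1 and wt cells. AT3G43230 fell in all 3 lines, with log2 changes of -1.85 in VND6 cells, -1.56 in SND1 cells and -1.502 in wt cells. AT4G34660 rose by 1.52 in VND6 cells and 0.90 in SND1 cells, the second call being lost without SND1 replicate 2 or 3 at 0 h or 1 at 12 h and with replicates 2 and 3 averaged (adjusted p up to 0.173 in limma). The VND6 rise of AT2G32760 (0.61) was lost in 9 of 14 alternatives, among them leaving out any of the 6 VND6 arrays. None of the 3 partner loci passed in a response beyond wt in limma, 1 and 0 of them had an unadjusted p under 0.05 there in VND6 and SND1 cells, and 1 was called higher in VND6 cells with the replicate number as a block or without wt replicate 1 at 12 h. Counts among 3 loci say little beside the shares given above for the responses beyond wt.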

How the data were processed

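Biotin-labelled RNA was hybridised, per the labels' protocols, which list 2 kits for labelling without saying which arrays had which. The authors deposited intensity values on a linear scale, a single signal for each probe set of an array. The submitters' processing notes name GCOS, with its version and algorithm not given in the sources used here. Their 2% trimmed mean was 500.05 to 500.06 on all 18 arrays, so they were used as already scaled. Such scaling assumes that most transcripts do not move, and dim signals are noisy. Between 0 h and 12 h, 32.1% of tested probe sets rose and 22% fell in wt cells. In VND6 cells 28.8% rose and 24.7% fell, and in SND1 cells 27.8% rose and 22.8% fell, so the assumption is in doubt here.

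Values were taken as log2(value + 4.32), the pseudocount being the table's 10th percentile. After removal of 64 control probe sets, those at or over the 40th percentile of an array on 3 or more of the 18 arrays were tested. In R 4.3.3, limma 3.58.1 (lmFit, eBayes with trend) fitted the 6 group means, with 2-sided p-values adjusted by Benjamini-Hochberg within each of 8 contrasts over all tested probe sets. The fit was tested on simulated data with independent noise on each array. Replicates 2 and 3 here lay closer to each other than to replicate 1, which the simulation did not copy. It therefore cannot check the p-values under that likeness. Every member was named; other autophagy loci came from lists, and where a locus had several probe sets the brightest was used. The members and lists were chosen with earlier results of these data known. RefSeq names are those of TAIR10.1, and no coordinates or sequences were used.

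Replicate numbers were checked for pairing: deviations from the group means of same-numbered arrays correlated at 0.188 to 0.380 between the times within each line and at 0.304 to 0.486 between SND1 and wt cells at 0 h, all over 0.1, and at 0.023 to 0.186 between VND6 and wt cells at 0 h. By the rule of 0.1 the numbers were taken to pair the arrays except in the last case. Arrays of different numbers correlated at up to 0.290 between the times in wt cells, where same-numbered arrays began at 0.255. Between SND1 and wt cells at 0 h they reached 0.338, where same-numbered arrays began at 0.304, so pairing is uncertain in both. The main fit did not use the numbers, and the replicate block is the alternative that did. The alternatives were quantile normalization, no filter, no pseudocount, a pseudocount 4 times larger, a fit of just the arrays compared, a replicate block, replicates 2 and 3 only, these averaged, and leaving out each array. The number of arrays limits the precision. Whether a probe set also reads a close relative of its gene was not tested.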

Additional observations from a re-analysis of the deposited data

Results flagged for a closer look

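These 9 responses differed between a transformed line and wt cells by the interaction test of limma. Among the ATG genes they were ATG8F in the VND6 response beyond wt (-0.80) and ATG8H in the SND1 response beyond wt (2.196). In the VND6 response beyond wt they also included the core loci AT5G66930 (0.99), AT3G61960 (1.71), AT3G53930 (0.97) and AT1G77890 (1.65, on the brighter of its probe sets). In the SND1 response beyond wt they included AT3G61960 (1.99), AT3G59950 (1.24) and AT1G77890 (1.88, on the same probe set). All 9 were lost with replicates 2 and 3 averaged. AT3G61960 kept both calls in each of the other 19 alternatives, and the rest also lost theirs in at least 1 alternative that left out an array. The dim probe set of ATG8H at 12 h and the unlike probe sets of AT1G77890 were measured beside these differences, and their part in them was not tested. A higher response was not always a rise. AT5G66930 fell by 1.23 in VND6 cells and by 2.22 in wt cells. The mean signal of AT1G77890 was 147 at 12 h against 275 at 0 h in VND6 cells, 230 against 312 in SND1 cells and 103 against 531 in wt cells. For AT3G53930 the means were 283 at 12 h against 199 at 0 h in VND6 cells, and 489 against 668 in wt cells.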

How the results depend on the processing

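The falls of 7 ATG genes in each line kept their direction in every alternative and their call in all but 1, ATG8B in wt cells with replicates 2 and 3 averaged. The number called at 12 h against 0 h stayed at 7 for the VND6 line, and lay between 7 and 8 for the SND1 line and between 6 and 8 for wt. With the replicate number as a block the counts were 7, 7 and 7 in VND6, SND1 and wt cells, and no call of an ATG gene other than ATG8G in wt cells changed. The smaller counts moved. In the VND6 response beyond wt, where 1 gene was called, it was 0 under quantile normalization, 0 with only the arrays compared, 0 with replicates 2 and 3 averaged, 4 with replicates 2 and 3 only, and 0 to 2 without 1 array. In the SND1 response beyond wt, also 1, it was 0 without a filter, 0 with replicates 2 and 3 averaged, 2 with replicates 2 and 3 only, and 0 to 1 without 1 array. For VND6 against wt at 0 h, also 1, it was 2 under quantile normalization, 0 with only the arrays compared, 0 with these replicates averaged, 5 with them only, and 0 to 1 without 1 array. In the difference of the 2 responses and in SND1 against wt at 0 h, where none was called, it was 3 and 3 with replicates 2 and 3 only, and 0 to 1 in the first without 1 array. The share of all probe sets called was not counted in the fits of replicates 2 and 3 alone or averaged. The cause of these moves was not tested.

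Reversals were found only among values that did not pass. With replicates 2 and 3 only, ATG8G was 0.0275 in VND6 cells and 0.33 in SND1 against wt at 0 h, ATG8E was -0.28, -0.14 and -0.14 in the VND6 response beyond wt, the SND1 response beyond wt and their difference, and ATG8D was -0.0458 in the SND1 response beyond wt. Under quantile normalization ATG8D was -0.0034 in that response and ATG3 0.0435 in SND1 against wt at 0 h, and ATG3 was 0.0476 there with replicates 2 and 3 averaged. Without 1 array the ranges that crossed 0 were, in the VND6 response beyond wt, -0.28 to 0.91 for ATG8E. In the SND1 response beyond wt they were -0.0011 to 0.21 for ATG8C, -0.25 to 0.24 for ATG8D, -0.0669 to 0.36 for ATG8E, -0.28 to 0.0460 for ATG8F and -0.49 to 0.10 for ATG8G. In the difference of the responses the range was -0.45 to 0.74 for ATG8E, and in VND6 cells -0.14 to 0.0380 for ATG8G. Against wt at 0 h they were -0.20 to 0.0479 for ATG8C and -0.45 to 0.0322 for ATG8G in VND6 cells, and -0.16 to 0.11 for ATG3 and -0.23 to 0.25 for ATG8G in SND1 cells. The median change over all tested probe sets in wt cells was 0.196, and 0.078 under quantile normalization. Each ATG gene had 1 probe set, so using each probe set of a gene was not run as an alternative.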
